A study of Sus scrofa with 24 samples.

Results

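Heat shock chaperones are proteins that help other proteins fold, refold or be degraded, and 10 of their genes were followed here in the piglet hippocampus. They are HSPA8, HSPA5, HSPA4, HSPH1, DNAJB1, HSP90AA1, HSP90AB1, HSPD1, HSPE1 and HSPB1, out of 38882 genes listed in the count files. The genes were selected by symbol around HSPA8, which was chosen because it passed the threshold for a size by diet interaction in these same libraries. Of the 10 genes, 9 passed the filter on low counts and HSPB1 had no reads.

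The study asked whether a formula with hydrolyzed fat could enhance brain development, both in piglets born small and in those of appropriate size. PolyA RNA was sequenced from the hippocampi of 24 piglets, labelled as postnatal day 14, with 6 in each of 4 groups. All were crosses of PIC Camborough dams with PIC 359 sires, were fed formula after a short time with the sow, and were either appropriate (AGA) or small (SGA) for gestational age. The control formula (CON) held its fat as triglyceride oils, and in the HF (hydrolyzed fat, not high fat) formula free fatty acids, monoacylglycerol and lecithin replaced a part of these. The 4 groups are thus the AGA and SGA piglets of each formula, with no gene edited in any. Within each diet, SGA piglets were paired with AGA littermates that matched in sex, which gave 12 litters in 2 cohorts. The model is limited in that size was given by birth weight and not by a manipulation, and that the labels do not say whether different pairs shared a sow. Reads counted on genes ranged from 6017336 to 9284355 per library. Levels are given as CPM, counts per 1000000 reads after TMM scaling of library size, where 3 counts are worth 0.323 to 0.499 CPM in a library. Dissected hippocampus was sequenced whole, so fewer cells of a type and less RNA per cell cannot be told apart. The tissue label was checked against marker genes, and the most abundant of each list were the neuronal transporter SLC17A7 at a mean of 3376 CPM, the astrocyte filament GFAP at 8225 CPM and the myelin protein MBP at 6589 CPM.

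Hsp70 proteins grip short hydrophobic stretches of a client protein and release them in a cycle driven by ATP. J-domain proteins such as DNAJB1 bring clients and start the cycle, and Hsp110 proteins such as HSPA4 and HSPH1 reset it by exchanging the nucleotide. HSP90 takes over partly folded kinases and receptors, the HSPD1 and HSPE1 proteins form a folding chamber in mitochondria, and small heat shock proteins such as HSPB1 hold unfolded clients. HSF1, the heat shock factor, raises many of these genes under stress, while HSPA8 is made at all times and in neurons also strips clathrin from synaptic vesicles.

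Positions of the genes are given in the Sscrofa10.2 build of the count files. HSPA8 (gene 100511890), the constitutive Hsp70, spans chr9:55405395-55409839 on the plus strand in 8 exons. HSPA5 (407060), the Hsp70 of the endoplasmic reticulum, spans chr1:299754103-299758617 on the minus strand. HSPA4 (100524853) spans chr2:140866335-140911632, HSPH1 (100048931) chr11:7585525-7661067 and DNAJB1 (396741) chr2:65176572-65180388. HSP90AA1 (397028) spans chr7:129758754-129760542 with an exon length of only 1000 bases, and HSP90AB1 (396742) spans chr7:45106779-45119936 with 3071 bases. HSPD1 (492279) at chr15:112534459-112547603 and HSPE1 (397575) at chr15:112548122-112550249 stand head to head on opposite strands, with 518 bases between them. HSPB1 (493184) spans chr3:9925991-9927359 in 3 exons. Counting used the strand of the reads, and 0 other listed genes have an exon on the same strand that overlaps an exon of a member.

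HSPB1, the best known small heat shock protein, had 0 counts in all 24 libraries, so no level above 0.323 to 0.499 CPM was seen in any of them. The same was true of AHSA1, an activator of HSP90, and HTRA2, a mitochondrial protease, among 156 genes of the chaperone lists found in the files. HSPB1 is therefore only listed at 0, as were 29.5% of all listed genes. Whether its reads were lost in mapping or counting was not tested. The small heat shock protein that led its list was CRYAB (alpha B-crystallin), at a mean of 364 CPM per kilobase of exon.

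Levels of different genes were compared per kilobase of exon length. HSP90AA1, an inducible form of cytosolic HSP90, was highest at 1078 ± 108 CPM per kilobase (SD, n = 24), a value that rests on its short exon model, since before dividing by length HSP90AB1 was the higher of the pair, at 1537 against 1078 CPM. HSP90AB1, the constitutive form, followed per kilobase at 500.5 ± 37.8 CPM per kilobase. HSPE1, the lid of the mitochondrial chamber, stood at 171 ± 21.5 and HSPA5 at 107 ± 11.4 CPM per kilobase. Their ranges met through a single piglet, SGA CON replicate 3, which was the only one whose HSPA5 level reached the range of HSPE1. HSPD1, the wall of the same chamber, was at 54.1 ± 3.82 CPM per kilobase, and its lowest piglet fell just under the highest piglet of HSPH1. HSPH1, HSPA8 and HSPA4 had means of 35.4, 33.7 and 20.5 CPM per kilobase, and neighbours among these 3 overlapped. Whether reads of HSPA8 or of other members were lost in mapping or counting was not tested, so these places are those of the counted reads. DNAJB1 was lowest at 9.24 ± 1.39 CPM per kilobase and overlapped no other member.

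The members also differed in how much they varied between piglets. HSPA8 varied most, with a coefficient of variation of 25.2% over the 24 piglets, while the median of all 16326 genes tested was 19.6%. HSPD1 at 7.06% and HSP90AB1 at 7.56% were among the steadiest genes in the tissue, with 1.51% and 2.48% of genes tested below them. The other members lay between 9.59% for HSPA4 and 15.0% for DNAJB1.

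**Figure D1:**
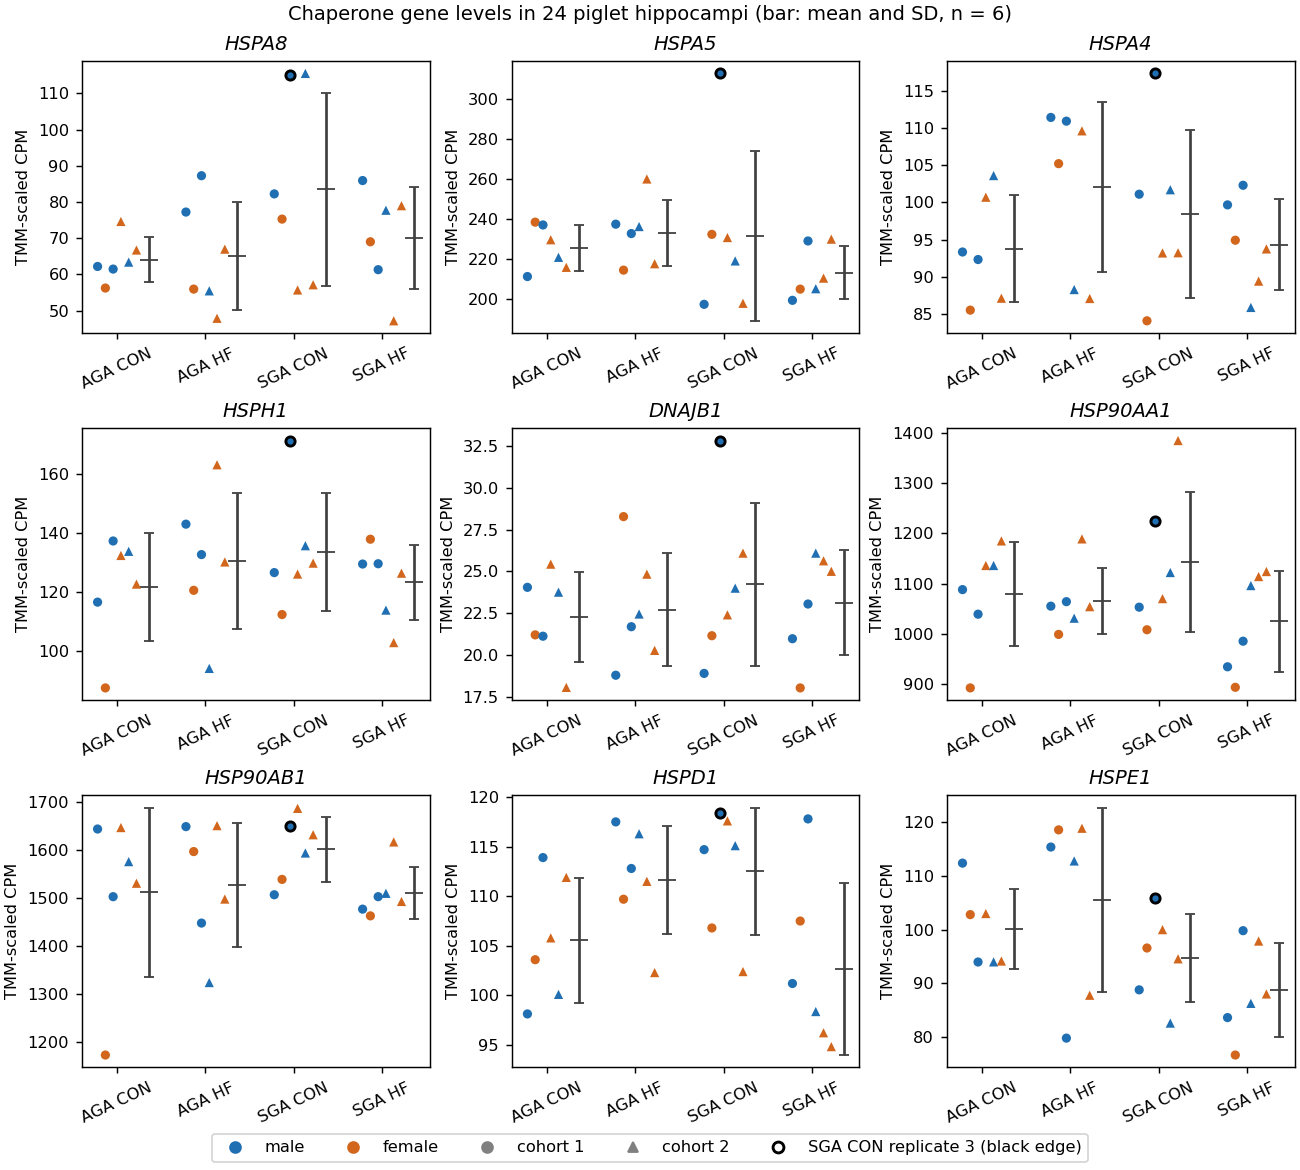
CPM (TMM-scaled, y axis, not starting at 0) of the 9 measured chaperone genes in each of 24 piglets by group, with colour for sex, shape for cohort and a bar for the mean and SD of 6 piglets. HSPA8 in SGA CON piglets runs from 55.7 to 115.5 CPM, and SGA CON replicate 3, with a black edge, is the highest of all 24 piglets for HSPA5, HSPA4, HSPH1, DNAJB1 and HSPD1.

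A single library stood apart before any comparison. SGA CON replicate 3, a male of cohort 1, was the highest of 24 piglets for 5 of the 9 members, where no other piglet was highest for more than 1. HSPA5 was at 312.7 CPM in this piglet and at 197 to 260 CPM in the other 23. HSPH1 was at 171 CPM against a highest value of 163 CPM elsewhere, DNAJB1 at 32.9 against 28.3, HSPA4 at 117 against 111 and HSPD1 at 118.4 against 117.8. HSP70.2, the inducible Hsp70 that the name table also lists as HSPA1A and HSPA1B, was at 322.9 CPM in this piglet and at 75.01 to 185 CPM in the others. This gene was picked out with its values in view, and its near-identical copies could share reads.

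The same piglet was also the highest for a part of the other stress genes. Of 21 measured targets of HSF1, it was the highest for 10, and 7 of those 10 were not members. Among them, SERPINH1, a collagen chaperone, was at 172.6 CPM (highest elsewhere 161.3), STIP1, which links Hsp70 to HSP90, at 364 (300.9), FKBP4, an HSP90 cochaperone, at 328 (278.8) and DNAJA1, a J-domain protein, at 404 (347). Of 23 genes of endoplasmic reticulum stress it was the highest for 10, 9 of them not members, including the calcium-binding chaperone CALR at 633 CPM (highest elsewhere 572) and the secreted factor MANF at 103 CPM (94.5). Of the transcription factors on that list, ATF4, its most abundant gene per kilobase, was the lowest of 24 at 388 CPM (median elsewhere 452), while DDIT3 was at 34.4 CPM (37.4), XBP1 at 66.6 CPM (65.9) and ATF6 at 2.08 CPM (1.48). Among the targets of HSF1, UBB was at 1421 CPM (median elsewhere 1418) and CRYAB at 379 CPM (351). Over all 16326 genes tested, this piglet was the highest for 3.41%, and 11 other libraries had a larger share. It was highest for 0 of 8 genes of clathrin and lysosome pathways that use HSPA8 and 0 of 5 immediate-early genes. Of 12 nucleotide exchange factors and other partners of Hsp70 it was highest for 0. Its total was 8450733 reads. The summed level of 4 choroid plexus markers, led by TTR, was 59.6 CPM in this piglet, the second highest of 24 (range 10.1 to 155.5), and none of the 4 was at 0 in all libraries. Sums of the other marker lists ranked sixth for endothelium and between 13 and 22 for the remaining lists. The part of these in the chaperone levels was not tested.

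Another pair of libraries stood apart in their cell markers. The summed neuron markers were at 3583 CPM in AGA CON replicate 2 and 4379 CPM in AGA HF replicate 4, and between 6066 and 8718 CPM in the other 22. The summed astrocyte markers were at 11540 and 11200 CPM in the same 2 piglets, the highest of 24. These piglets were also the lowest of 24 for HSP90AB1, at 1172 and 1323 CPM, and for HSPH1, at 87.7 and 94.3 CPM. The part of the tissue's makeup in these levels was not tested. SGA HF replicate 4 had a summed level of the pituitary markers GH1, PRL and POMC of 361 CPM, against 18.9 to 36.7 CPM in the other 23. Without this piglet 0 of 9 members were called in any of the 7 contrasts, and the HSPA8 interaction described later was -0.53.

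**Figure D2:**
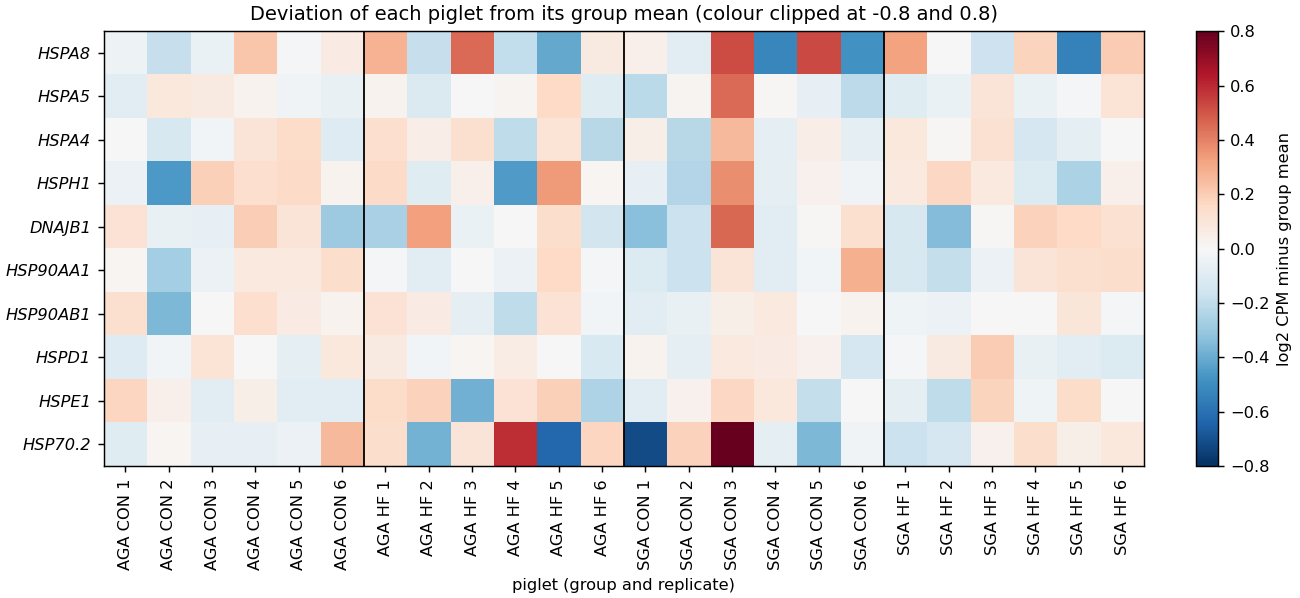
Log2 CPM minus the mean of the piglet's own group (colour, red above and blue below) for 9 members and HSP70.2 in 24 piglets (columns, with lines between groups). SGA CON replicate 3 is red in most rows, whereas HSPA8 shows strong colours in several other piglets.

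HSPA8 was measured at 56.2, 62.8 and 74.6 CPM in AGA CON piglets (lowest, median and highest of 6). In AGA HF piglets these values were 47.9, 61.5 and 87.3 CPM. In SGA CON piglets they were 55.7, 78.8 and 115.5 CPM, and in SGA HF piglets 47.2, 73.4 and 85.9 CPM. The SGA CON group held the 2 highest piglets of the study, replicates 3 and 5, and also 2 low ones, so that its range covered the whole of the AGA CON range. Group means were 64.1 ± 6.17 CPM in AGA CON, 65.1 ± 14.9 in AGA HF, 83.5 ± 26.7 in SGA CON and 70.0 ± 14.1 in SGA HF (SD, n = 6). Without replicate 3 the SGA CON mean was 77.2 ± 24.3 CPM (n = 5).

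Littermates gave the size difference within each litter. On the CON diet the SGA piglet had more HSPA8 than its AGA littermate in 4 of 6 litters, with differences from -18.9 to 53.7 CPM and a mean log2 ratio of 0.33 ± 0.55 (SD, n = 6). In the 3 litters of males the SGA piglet was higher by 20.04, 53.7 and 52.2 CPM. Among the females, litter pair 2 differed by 19.0 CPM and pairs 4 and 6 by -18.9 and -9.60 CPM. On the HF diet the SGA piglet was also higher in 4 of 6 litters, with differences from -26.0 to 22.3 CPM and a mean log2 ratio of 0.11 ± 0.35. Males there gave 8.70, -26.0 and 22.3 CPM, in both directions, and females 13.1, -0.691 and 12.0 CPM. The differences overlapped widely between the diets.

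**Figure D3:**
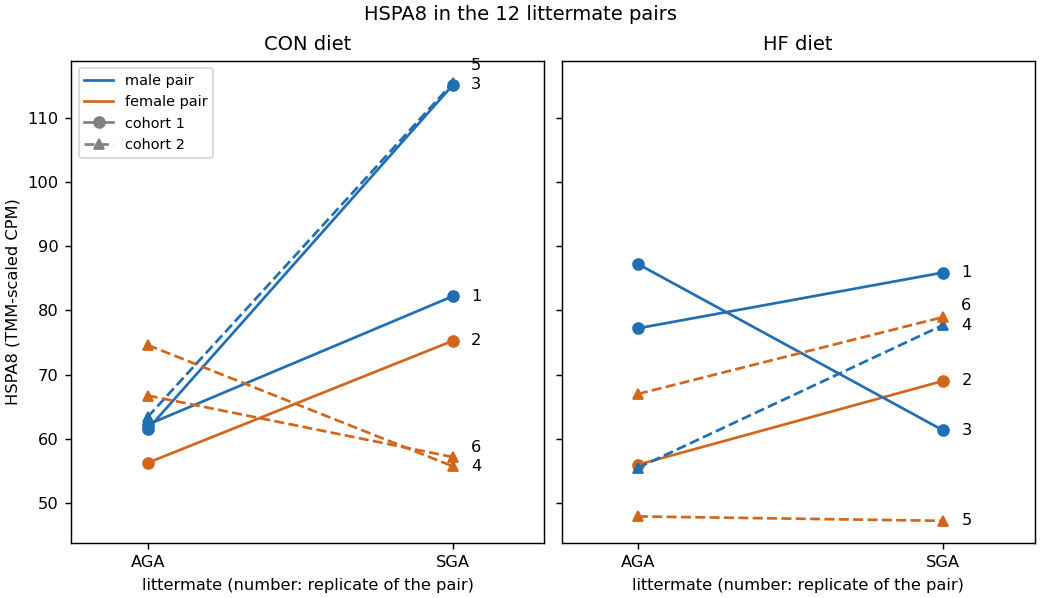
HSPA8 CPM (TMM-scaled, y axis) in the AGA and SGA piglet of each litter, on the CON diet (left) and the HF diet (right), with a line per litter, colour for sex and line style for cohort. The lines of CON replicates 3 and 5, both male, climb from just over 60 to about 115 CPM. Those of CON replicates 4 and 6 fall, and the lines of the HF diet also run in both directions.

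The interaction asks whether the size difference on HF differs from that on CON. It chose HSPA8, so its values here are a description with no test. With sex and 5 surrogate variables in the model, the HSPA8 size difference on HF minus that on CON was -0.55 on the log2 scale (SE 0.14). Its adjusted p was 0.391 in edgeR's quasi-likelihood test, just inside the threshold of 0.4, and the next member, HSPD1, was at 0.676. Of all genes tested, 0.049% were called in this contrast. The 4 parts of the HSPA8 value were 0.39 for SGA CON against AGA CON, -0.16 for SGA HF against AGA HF, 0.23 for AGA HF against AGA CON and -0.32 for SGA HF against SGA CON.

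These fitted HSPA8 values leaned on the surrogate variables, which are patterns estimated from the libraries themselves. The surrogate variables took 74.1% of the HSPA8 variance left after groups and sex, against a median of 48.4% over all genes tested, and 13.0% of genes had a larger share. Without them the interaction value of HSPA8 was -0.23 and the difference between SGA HF and AGA HF piglets turned from -0.16 to 0.11. The difference between AGA HF and AGA CON piglets went from 0.23 to 0.003 without them, and was -0.27 within cohort 2 alone. With the litter as a block, which keeps each pair together, the interaction value was -0.23 (adjusted p = 0.84, edgeR). Within cohort 1 alone it was -0.62 and within cohort 2 alone 0.13. Without SGA CON replicate 3 it was -0.47 and without AGA CON replicate 2 it was -0.34, and HSPA8 was called in neither. HSPA8 kept its call in 5 of the 24 fits that left out a piglet, those without AGA HF replicate 3, AGA CON replicate 6, SGA CON replicates 1 and 4 or SGA HF replicate 6, and the value ranged from -0.61 to -0.34 over the 24.

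The fitted interaction was -0.22 for HSPH1 (SE 0.15), -0.20 for HSPD1 (SE 0.09), -0.19 for HSPA5 (SE 0.12) and -0.16 for HSPA4 (SE 0.10). It was -0.12 for HSP90AA1 and -0.075 for HSP90AB1, and within 1 SE of 0 for DNAJB1 and HSPE1. Because the members were gathered around HSPA8, nothing is read from these values. Without SGA CON replicate 3 the values were -0.04 for HSPH1, -0.05 for HSPA5 and -0.07 for HSPA4, and -0.18 for HSPD1.

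For size itself, no measured member passed the threshold. In the main effect of SGA against AGA over both diets, 0 of 9 members were called by edgeR, by DESeq2 or by limma voom. In edgeR 0 had an unadjusted p under 0.05, where 0.478% of all genes tested were called and 10.6% had such a p. The median log2 difference of the members was 0.01 against 0.00 for all genes. HSPA8 was at 0.11 (SE 0.07, adjusted p = 0.828, edgeR), and at 0.22 with the litter as a block and 0.23 without surrogate variables, where it was not called either. DNAJB1 was at 0.08 (SE 0.10). HSPE1 was lower in SGA piglets by -0.11 (SE 0.06, adjusted p = 0.762, edgeR). Its value was -0.16 without surrogate variables, -0.18 in cohort 1 alone and -0.07 without AGA HF replicate 1, with no call in any of these. The other 6 lay between -0.02 and 0.02, with SEs of 0.03 to 0.08.

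The other Hsp70 genes and their partners gave groups that overlapped throughout. HSPA5 was at 211, 225 and 238 CPM in AGA CON piglets (lowest, median, highest), 214, 234 and 260 CPM in AGA HF, 197, 225 and 312.7 CPM in SGA CON and 199, 208 and 229.8 CPM in SGA HF. Its SGA CON mean was 232 ± 42.6 CPM (SD, n = 6) and 215 ± 17.1 CPM without replicate 3 (n = 5), so that a single piglet set both the height and the spread of this group. HSPA4 was at 85.6, 92.8 and 104 CPM in AGA CON, 87.1, 107 and 111 CPM in AGA HF, 84.1, 97.2 and 117 CPM in SGA CON and 85.9, 94.3 and 102 CPM in SGA HF. HSPH1 was at 87.7, 128 and 137 CPM in AGA CON, 94.3, 132 and 163 CPM in AGA HF, 112.5, 128 and 171 CPM in SGA CON and 103.0, 128 and 138 CPM in SGA HF. The medians of HSPH1 were almost level over the groups, and its SD was largest in AGA HF (23.0 CPM) and SGA CON (19.98 CPM). DNAJB1 was at 18.1, 22.5 and 25.4 CPM in AGA CON, 18.8, 22.1 and 28.3 CPM in AGA HF, 18.9, 23.2 and 32.9 CPM in SGA CON and 18.02, 24.03 and 26.1 CPM in SGA HF. Without replicate 3, SGA CON means were 94.7 ± 7.19 CPM for HSPA4, 126 ± 8.56 CPM for HSPH1 and 22.5 ± 2.74 CPM for DNAJB1, against 98.5 ± 11.3, 134 ± 19.98 and 24.2 ± 4.88 CPM with it.

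The HSP90 genes, the most abundant members on either scale, overlapped between groups too. HSP90AB1 was at 1172, 1552 and 1646 CPM in AGA CON, 1323, 1547 and 1650 CPM in AGA HF, 1506, 1612 and 1686 CPM in SGA CON and 1462, 1497 and 1616 CPM in SGA HF. HSP90AA1 was at 892, 1112 and 1185 CPM in AGA CON and 998.7, 1055 and 1189 CPM in AGA HF. The SGA groups of HSP90AB1 lay within narrower ranges than the AGA groups, whose low ends were AGA CON replicate 2 and AGA HF replicate 4.

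HSPE1 gives the largest size difference among these after HSPA8. Its values were 94.0, 98.5 and 112 CPM in AGA CON piglets (lowest, median, highest), 79.8, 114 and 119 CPM in AGA HF, 82.6, 95.6 and 106 CPM in SGA CON and 76.6, 87.1 and 99.8 CPM in SGA HF. The 4 groups overlapped. The SGA littermate was lower in 4 of 6 litters on each diet.

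The size difference was also fitted within each diet. HSPA8 is left out of the counts within a diet or a size, because these differences are parts of the interaction that chose it. In SGA CON against AGA CON piglets, 0 of the other 8 members were called and 0 had an unadjusted p under 0.05 in edgeR, against 0.129% and 6.59% of all genes tested. In SGA HF against AGA HF, 0 of 8 were called and 0 had an unadjusted p under 0.05, against 0.288% and 8.02% of genes. DESeq2 and limma voom called 0 of the 8 in either comparison. HSPD1, HSPA5 and HSPA4 were each lower in the SGA littermate in 5 of 6 litters on HF, with mean log2 ratios of -0.12 ± 0.12, -0.13 ± 0.15 and -0.11 ± 0.13 (SD, n = 6). DNAJB1 ran the other way on HF and was higher in 5 of 6 litters, with a mean log2 ratio of only 0.03 ± 0.35. On CON the mean log2 ratios of HSPD1, HSPA5 and HSPA4 were 0.09 ± 0.13, 0.02 ± 0.19 and 0.07 ± 0.16. The litter of SGA CON replicate 3 gave the highest CON ratios of HSPA5 and HSPA4, at 0.4 and 0.35. Medians over the 6 CON litters were -0.025 for HSPA5 and 0.037 for HSPA4. On the same diet HSPD1, HSPH1 and HSP90AB1 were each higher in the SGA littermate in 5 of 6 litters. Mean log2 ratios were 0.14 ± 0.17 for HSPH1 and 0.09 ± 0.17 for HSP90AB1, with medians of 0.099 and 0.064. The litter of AGA CON replicate 2 gave the highest value of both, at 0.36 and 0.39. No share of all genes with 5 of 6 litters in the same direction is given here, so nothing is read from these litter counts.

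Diet gave no call either. In HF against CON over both sizes, 0 of 9 members were called by edgeR, DESeq2 or limma voom. In edgeR 0 had an unadjusted p under 0.05, where 0.159% of all genes tested were called and 7.1% had such a p. Both littermates of a litter shared a diet, and these fits took the piglets as units without a litter term. Littermates thus counted as independent in these p-values and shares. Limma voom with the litter as a random effect also called 0 of 9. The member values ran from -0.08 for HSP90AA1 (SE 0.05, adjusted p = 0.809, edgeR) to 0.04 for DNAJB1 (SE 0.10), with a median of -0.02 against 0.00 for all genes. Within AGA piglets 0 of the 8 members other than HSPA8 were called and 0 had an unadjusted p under 0.05 in edgeR, against 0.0674% and 6.09% of genes. Within SGA piglets 0 of 8 were called and 2, HSPD1 and HSP90AA1, had an unadjusted p under 0.05, against 0.0919% and 5.16% of genes. DESeq2 and limma voom called 0 of the 8 in both. HSPD1 lay between 102 and 118 CPM in SGA CON piglets (median 115) and between 94.8 and 118 CPM in SGA HF piglets (median 99.8), and replicates 2 and 3 of SGA HF lay within the SGA CON range. The fitted difference was -0.16 (SE 0.06, adjusted p = 0.644, edgeR). HSP90AA1 had 1008, 1096 and 1385 CPM in SGA CON piglets (lowest, median, highest) and 893, 1040 and 1124 CPM in SGA HF piglets, with a fitted difference of -0.14 (SE 0.07, adjusted p = 0.733, edgeR).

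**Figure D4:**
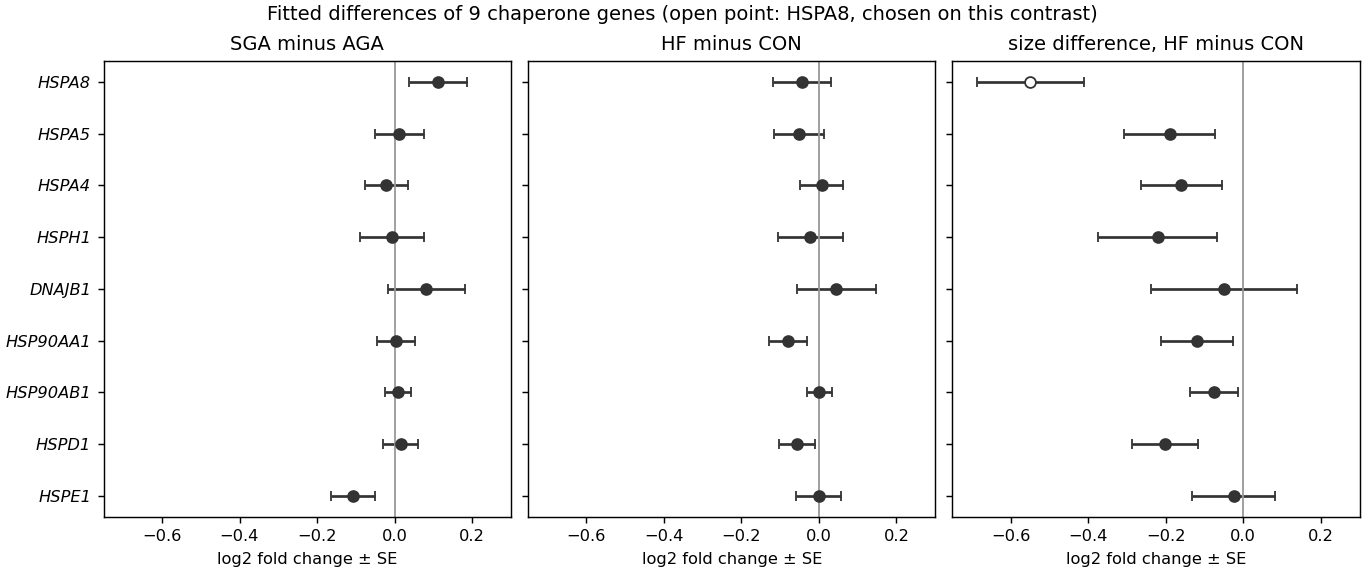
Fitted log2 differences with their SE (x axis) of 9 members (rows) for SGA minus AGA, HF minus CON, and the size difference on HF minus that on CON, from 24 piglets. Size and diet values all lie between -0.11 and 0.11, and HSPA8, drawn open because it was chosen on the third contrast, lies at -0.55 there.

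Cohort and sex also differ between litters and, unlike diet, were tested on counts summed over littermates. Cohort 1 held more litters of males and cohort 2 more litters of females, so raw means by cohort and by sex are not independent. Between cohorts, 0 of 9 members passed the threshold of 0.05 in edgeR or DESeq2, where 0.447% of genes tested were called. An unadjusted p under 0.05 was found for 1 of the 9 in edgeR and for 11.2% of all genes, so the members' share is that of the background. That member was HSP90AA1, with litter means of 946 to 1131 CPM in cohort 1 (mean 1020 ± 72.1, SD, n = 6 litters) and 1063 to 1285 CPM in cohort 2 (mean 1137 ± 78.9). The cohorts overlapped, and the log2 difference was 0.17 (SE 0.07, adjusted p = 0.338, edgeR). Cohort 2 had the higher mean in each of the 4 groups. Other measures differed between the cohorts as well, with the summed endothelial markers at 176 ± 29.9 CPM in cohort 1 and 149 ± 20.5 CPM in cohort 2 (SD, n = 12 piglets) and the count entry that carries no gene identifier at 0.996 ± 0.215% and 0.788 ± 0.121% of counts. The oligodendrocyte sum was 10980 ± 2040 CPM in cohort 1 and 13610 ± 2529 CPM in cohort 2, the microglia sum 74.3 ± 31.5 and 104.7 ± 15.0 CPM and the choroid plexus sum 41.7 ± 39.4 and 18.0 ± 8.96 CPM. Over piglets HSP90AA1 had r = -0.74 with the endothelial sum, -0.71 with the red blood cell sum and -0.62 with that entry, and the part of all these in the cohort values was not tested. The constitutive HSP90AB1 differed between cohorts by 0.05 (SE 0.06).

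Between sexes, 0 of 9 members were called in edgeR or DESeq2 where 0.104% of genes tested were called. An unadjusted p under 0.05 was found for 1 of the 9 in edgeR and for 3.65% of all genes. That member, HSPA8, had litter means of 66.6 to 89.5 CPM in the 6 litters of males (mean 78.7 ± 9.22) and 47.5 to 73.0 CPM in the 6 litters of females (mean 62.6 ± 8.39). The ranges overlapped. In AGA CON the males, at 62.2, 61.5 and 63.4 CPM, lay within the range of the females, at 56.2, 74.6 and 66.7 CPM. In SGA CON the males were at 82.2, 115.2 and 115.5 CPM and the females at 75.3, 55.7 and 57.1 CPM. The sexes overlapped in both HF groups. Over all litters the log2 difference was 0.32 (SE 0.10, unadjusted p = 0.00656, adjusted p = 0.999, edgeR). The other 8 members lay between -0.04 and 0.09.

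The members did not vary as a single block between piglets. Correlations were taken over 24 piglets in log2 CPM with group means removed, and are descriptions, since littermates and libraries share depth and scaling. The closest pair was HSPA4 and HSPH1, both of the Hsp110 family, with r = 0.73 (Spearman rho 0.74, and r = 0.68 without SGA CON replicate 3). With the summed neuron markers HSPA4 had r = 0.38 and HSPH1 r = 0.59, the latter at 0.03 without AGA CON replicate 2 and AGA HF replicate 4. The cytosolic HSP90 genes followed each other with r = 0.57 (rho 0.55). HSP90AB1 also followed the summed neuron markers with r = 0.90 (0.69 without AGA CON replicate 2 and AGA HF replicate 4) and ran against the astrocyte sum with r = -0.70 and the endothelial sum with r = -0.74. HSP90AA1 had r = 0.54 with the neuron sum, and 0.28 without AGA CON replicate 2 and SGA CON replicate 6. The part of these markers in the member pairs was not tested. HSPH1 and HSP90AB1 had r = 0.61 but a rho of 0.30, and r was 0.18 without the 2 piglets farthest out in HSPH1. HSPD1 and HSPE1, whose proteins work as a pair and whose genes stand head to head, had r = 0.09 (rho 0.03).

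HSPA8 followed none of the members closely. Its highest r with a member was 0.43, with HSPA4 (0.32 without SGA CON replicate 3), and its lowest was -0.45, with HSPE1 (-0.59 without that piglet). Of 10950 genes with a mean of at least 5 CPM, 8.57% had a higher r with HSPA8 than HSPA4 had. The 8 named genes most like it were TTC5, AP3M2, PPP2CA, CAP2, YWHAG, STUM, KIF3C and HNRNPK, with r from 0.81 to 0.84, and from 0.77 to 0.82 without the 2 piglets farthest out in HSPA8 (SGA CON and SGA HF replicate 5). PPP2CA is the catalytic subunit of a major phosphatase, AP3M2 a subunit of a vesicle adaptor, KIF3C a kinesin motor, YWHAG a 14-3-3 adaptor protein, CAP2 an actin regulator and HNRNPK an RNA-binding protein.

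Measures of the libraries were set beside HSPA8 as well. Its r was 0.41 with the log2 total count and -0.63 with the summed level of 71 ribosomal protein genes, a sum chosen after values were seen. HSPE1 had r = 0.77 with that same sum, and the other members lay between -0.34 and 0.23. With the summed markers of 9 cell types and tissues HSPA8 had r between -0.18 and 0.07. No RNA quality value per piglet was used here. The paper gives the RNA quality number only as an average over the samples, and attributes its value to pre-spliced RNA. The part of these measures in the HSPA8 values was not tested.

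**Figure D5:**
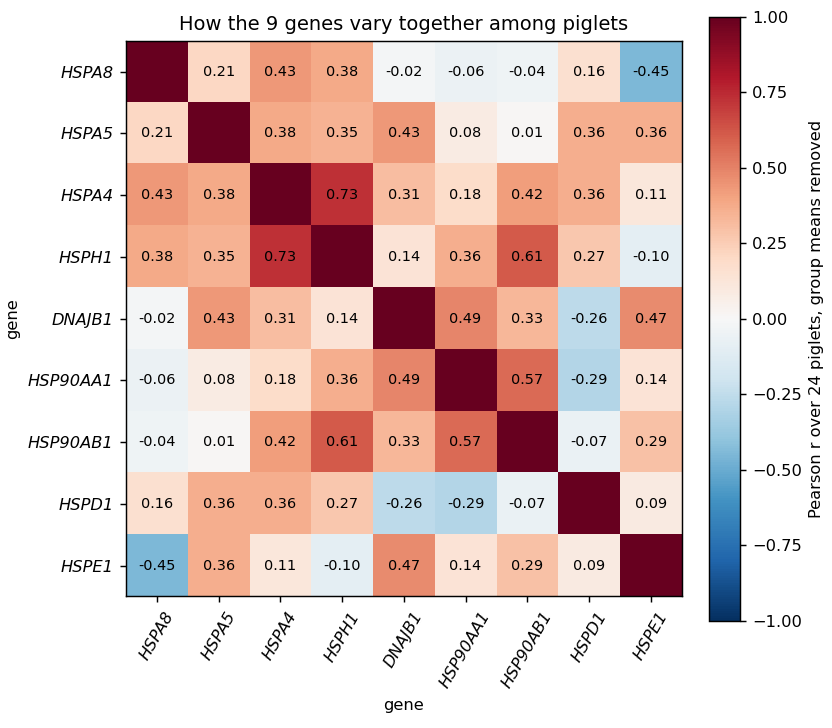
Pearson r between each pair of the 9 members (colour and number) over 24 piglets, in log2 CPM with group means removed. HSPA4 with HSPH1 is the highest at 0.73 and HSPA8 with HSPE1 the lowest at -0.45.

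The wider chaperone network was read from 12 lists holding 156 genes found in the files, of which 146 were tested. In the size contrast 1 gene was called, DNAJC4, a J-domain protein of the Hsp70 system, which is 0.685% of the 146 against 0.478% of all genes tested, so a share near the background. At an unadjusted p under 0.05 there were 12 of the 146, against 10.6% of all genes. DNAJC4 was named because it was called in this contrast, so its values and refits are a description and no further test. It was at 31.5 ± 3.42 CPM in AGA piglets and 26.6 ± 2.72 CPM in SGA piglets (SD, n = 12), and lower in the SGA littermate in 10 of 12 litters. Mean oligodendrocyte marker sums were also lower in SGA, at 10520 (CON) and 11390 CPM (HF), against 13770 and 13480 CPM in AGA. Mean neuron sums were 7444 and 6822 CPM in SGA, against 6606 and 6419 CPM in AGA. The part of these markers in the DNAJC4 values was not tested. The log2 difference of DNAJC4 was -0.29 (SE 0.07, adjusted p = 0.375, edgeR), and with the litter as a block -0.25 (adjusted p = 0.412, edgeR). It was -0.45 in cohort 1 and -0.06 in cohort 2, and DESeq2 called it. Its call was kept in 11 of the 24 fits that left out a piglet, those without AGA CON replicates 2 and 4, AGA HF replicates 3 and 4, SGA CON replicates 1, 4 and 6 or SGA HF replicates 1, 2, 3 and 6, and was lost in the others, SGA CON replicate 3 included (-0.26). In the diet, cohort and sex contrasts 0 of the 146 were called in edgeR, with 5, 14 and 5 at an unadjusted p under 0.05 (7.10%, 11.2% and 3.65% of all genes), and DESeq2 and limma voom were read for the members and DNAJC4 only. In the interaction HSPA8 alone was called.

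Each list stayed close to the median of all genes for size and diet, with a few wider exceptions. For 21 targets of HSF1 the median log2 difference was 0.01 for size and -0.03 for diet, and for 23 endoplasmic reticulum stress genes -0.01 and -0.05, against 0.00 for all genes in both. For 39 J-domain proteins it was 0.01 and -0.01, and for 12 Hsp70 exchange factors and other partners 0.00 and 0.02. For 18 genes of HSP90 and its cochaperones it was 0.00 and -0.01, and for 17 genes of chaperonins and their prefoldin partners -0.02 and 0.02. For 15 Hsp70 and Hsp110 genes it was -0.01 and -0.03, for 13 mitochondrial folding genes 0.02 and 0.02, for 8 genes of HSPA8 client pathways -0.01 and -0.05 and for 3 heat shock factor genes 0.01 and -0.01. The 5 small heat shock proteins had -0.06 and 0.00, and the 5 immediate-early genes 0.17 and -0.09. The list leaders per kilobase, besides members, were UBB (ubiquitin) at 1411, HSBP1, a binding partner of HSF1, at 428, CLTB, a clathrin light chain, at 377, ATF4, a stress transcription factor, at 320, DNAJA1 at 194, STUB1, a ubiquitin ligase that takes Hsp70 clients, at 169 and JUNB, an immediate-early factor, at 43.3 CPM per kilobase. UBB was at -0.135 in the size contrast (SE 0.04, adjusted p = 0.555, edgeR) and CRYAB at -0.18 (SE 0.08, adjusted p = 0.691, edgeR), so neither passed the threshold. The oligodendrocyte marker sum was also lower in the SGA groups, and its part in the CRYAB value was not tested.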

How the data were processed

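The members and gene lists were chosen with earlier results of these data known. Per the labels, the file headers and the study's methods, the authors trimmed reads with Trimmomatic 0.33, aligned them to Sscrofa10.2 with STAR 2.5.2a and counted reads on exons by strand with featureCounts 1.5.0. The deposited values are whole-number counts without normalization. The entry without an identifier (0.613 to 1.62% of counts) was left out. Symbols were matched on gene identifier to a Sscrofa11.1 table (23036 of 38882 matched). Symbols held by more than 1 identifier were left out.

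Of all genes, 16326 reached 1 CPM in 3 or more libraries and entered the test with edgeR 4.0.16 in R 4.3.3, by glmQLFit and glmQLFTest on TMM-scaled counts. The terms were the 4 groups, sex and 5 surrogate variables (sva 3.50.0). The Benjamini-Hochberg adjustment covered 7 contrasts together, as in the study, and genes were called at 0.4, the limit the study used to choose genes for its heat map. Cohort and sex were tested on sums of littermates, adjusted within the contrast, at 0.05. DESeq2 1.42.0 and limma 3.58.1 (voom, used in the study) were alternatives, with other filters, scalings, terms and left-out piglets. Fits were tested on simulated data. The deposited totals limit precision through counting error. In the main fit, p-values of the 7 contrasts measure the spread between piglets that is left after groups, sex and surrogate variables, with littermates not paired. Those of cohort and sex measure the spread between litter sums.

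Litter labels pair the SGA and AGA piglets. Deviations of littermates from their group means correlated with a mean r of 0.154 (0.0144 to 0.329, 12 pairs).

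Named genes are the members, list genes called in a contrast (at most 4 per list and contrast), the most abundant gene per kilobase of each list, and the 8 symbols with the highest r to HSPA8 among genes with a mean of at least 5 CPM. Genes named for SGA CON replicate 3, and HSP70.2, AHSA1 and HTRA2, were chosen after their values were seen.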

Additional observations from a re-analysis of the deposited data

Results flagged for a closer look

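Within groups of 6 piglets, the gap of an extreme piglet to the next was compared with the range of the group for the 9 members and HSP70.2. Of 40 sets of 6 values, 5 held a piglet whose gap passed Dixon's critical value for 6 samples, and chance flags about 1 in 20 groups. The 40 sets share the same piglets and are not independent. HSPA5 was far above its group in SGA CON replicate 3, at 312.7 CPM. HSP90AB1 was far below its group in AGA CON replicate 2, at 1172 CPM. It was also flagged above its group in SGA HF replicate 5, at 1616 CPM, against a tight group (mean 1510 ± 54.8 CPM, SD, n = 6). That value lay within the ranges of the AGA CON, AGA HF and SGA CON groups. HSP90AA1 was flagged above its group in AGA HF replicate 5, at 1189 CPM, a value within the SGA CON range. HSP70.2 was flagged above its group in AGA CON replicate 6, at 169.8 CPM, a value within the AGA HF and SGA CON ranges.

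The HSPA8 size difference differed between the diets by -0.55 on the log2 scale, which is the value the gene was chosen on. It has no independent test here, and both diets held litters with a higher and litters with a lower SGA piglet.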

How the results depend on the processing

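The count of members called stayed at 0 for size, diet, SGA HF against AGA HF, AGA HF against AGA CON and cohort under every alternative run. In the interaction 1 member was called, and 0 with the adjustment over each contrast alone, a threshold of 0.05, no low-count filter, 1 CPM in 6 libraries, no surrogate variables, cohort in their place, cohort 1 alone, cohort 2 alone, the replicate block (litter), limma voom or voom with litter as a random effect. The replicate block changed no other member call. It called 0 members in the size contrast and gave -0.23 for HSPA8 in the interaction. In SGA CON against AGA CON the count was 0, and 1 with RLE size factors or DESeq2 (HSPA8, for which this is a part of the value it was chosen on). For sex it was 0, and 1 with no low-count filter (HSPA8). The cause was not tested. Leaving out a piglet gave 0 to 1 called in the interaction (HSPD1 without SGA HF replicate 3, HSPA8 without AGA CON replicate 6, AGA HF replicate 3, SGA CON replicates 1 and 4 or SGA HF replicate 6), 0 to 1 in SGA CON against AGA CON (HSPA8, without AGA CON replicate 6, AGA HF replicates 3 and 4, SGA CON replicates 1 and 4 or SGA HF replicates 1, 2 and 3) and 0 to 2 in SGA HF against SGA CON (HSPA8 without AGA CON replicate 2, HSPD1 without SGA HF replicate 3, HSPA8 and HSP90AA1 without SGA CON replicate 4).

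Of 27 member values in the size, diet and interaction contrasts, 16 lay within 1 SE of 0. Of 936 refitted values, 812 kept their sign, 121 sign changes fell on those near 0 and 3 on the others, HSPA8 in the interaction (0.13 in cohort 2 alone), HSP90AB1 in the interaction (0.003 in cohort 2 alone, from -0.075) and HSPD1 for diet (0.03 in cohort 1 alone, from -0.06). DNAJC4 kept its sign in 35 refits, added after it was seen, from -0.45 to -0.06, and was called in 13 of them. Each cohort holds 3 piglets per group.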

Other observations

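The immediate-early genes, switched on within minutes by activity or stress, lay above 0 in SGA against AGA piglets for 5 of 5 measured genes, and 0 passed the threshold in edgeR (smallest adjusted p = 0.621), with 2, JUNB and DUSP1, at an unadjusted p under 0.05. Of all genes tested, 49.2% lay above 0 in this contrast, 0.478% were called and 10.6% had an unadjusted p under 0.05. JUNB was at 0.17 (SE 0.06) and DUSP1 at 0.23 (SE 0.11) on the log2 scale. FOS was at 0.15 (SE 0.15), EGR1 at 0.14 (SE 0.13) and NPAS4 at 0.36 (SE 0.29). FOS and NPAS4 were low, at means of 3.13 and 1.5 CPM. The list held 8 symbols, of which 5 were found. SGA CON replicate 3 was the highest piglet for 0 of these 5 genes, and SGA CON replicate 6 for 3 of them. Mean neuron marker sums were 7444 and 6822 CPM in SGA CON and SGA HF, against 6606 and 6419 CPM in AGA CON and AGA HF. The 2 piglets with the lowest neuron sums, AGA CON replicate 2 and AGA HF replicate 4, were both AGA. The part of these in the immediate-early values was not tested.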
